A study of Mus musculus with 18 samples.

Results

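The genes described here encode the proton pump that acidifies lysosomes and secretory granules, the vacuolar-type ATPase (V-ATPase), together with the cathepsin proteases and the lysosomal membrane proteins Lamp1 and Lamp2. They were taken by symbol: every gene whose symbol begins with Atp6v or Atp6ap, every gene named Cts followed by 1 letter, and Lamp1 and Lamp2, with pseudogene symbols containing -ps left out. The rule found 45 of the 53801 mouse genes listed, and it used no measured value. They are 13 genes of the V1 sector of the pump, 9 of its V0 sector, 3 accessory proteins, 18 cathepsins and 2 Lamp genes, and 34 of them had enough counts to be tested.

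The V-ATPase has a V1 sector in the cytosol that hydrolyses ATP and a V0 sector in the membrane that carries protons, and hydrolysis turns a central rotor that drives the transport. Low pH is what most cathepsins need for their maturation and activity, and in beta cells the same pump acidifies the insulin granule, where proinsulin is processed. Lamp1 and Lamp2 are the most abundant glycoproteins of the lysosomal membrane, and both are commonly used to mark lysosomes.

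Islets of Langerhans, the endocrine cell clusters of the pancreas, were isolated whole from mice aged 5 weeks and fed normal chow, and their RNA was sequenced in bulk. The groups were male mice heterozygous for the S64F allele of MafA (male S64F/+, n = 4), male wild-type mice (male WT, n = 4), female heterozygotes (female S64F/+, n = 5) and female wild-type mice (female WT, n = 5). MafA is a transcription factor that activates insulin and other beta-cell genes, and the series' title names S64F as a variant of maturity-onset diabetes of the young. Nothing in the labels says whether each replicate was a different mouse, whether islets of several mice were combined, or how the allele was made, so p-values measure the spread between these libraries. Library totals ran from 19.3 to 109 M counts, and the 45 genes took between 0.363 and 0.403% of the counts of a library. Values per library are given as CPM, counts per M library counts after the totals were corrected by the trimmed mean of M values (TMM), with the SD over libraries. The Mafa transcript fell in both sexes, to 197 ± 52.3 CPM in male S64F/+ against 905 ± 80.8 CPM in male WT islets (adjusted p 1.77e-06) and to 160 ± 49.8 CPM in female S64F/+ against 639 ± 117 CPM in female WT islets (adjusted p 1.6e-06). Because both alleles enter the same count, this does not check the genotype labels. All 18 of the 18 libraries matched their labelled sex, and replicates correlated at 0.960 to 0.988 across genes.

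Promoter sequences are shown for 6 members that hold a motif tied to lysosomal genes or to Maf factors in the window from 250 bases before to 50 bases after the transcription start of RefSeq (GRCm38.p6). The palindrome TCACGTGA is the core of the motif bound by Tfeb and Tfe3, the factors known for switching on lysosomal genes, and TGCTGAC is a partial site of the Maf recognition element. Each line runs from 40 bases before the match to 10 bases after it, 5′ to 3′ on the strand of the gene, and capitals mark the motif.
Atp6v1a, minus strand, chr16:44139374-44139431: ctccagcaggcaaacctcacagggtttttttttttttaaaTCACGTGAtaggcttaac
Atp6v0e, plus strand, chr17:26676358-26676415: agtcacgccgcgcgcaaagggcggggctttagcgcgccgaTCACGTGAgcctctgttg
Atp6v0d1, minus strand, chr8:105566051-105566108: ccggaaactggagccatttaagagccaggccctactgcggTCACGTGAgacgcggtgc
Ctsd, minus strand, chr7:142387909-142387966: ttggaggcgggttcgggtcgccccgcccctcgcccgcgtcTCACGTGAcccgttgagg
Ctsa, plus strand, chr2:164833720-164833794: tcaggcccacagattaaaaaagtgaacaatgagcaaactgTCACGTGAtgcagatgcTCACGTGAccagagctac
Atp6ap2, plus strand, chrX:12587654-12587710: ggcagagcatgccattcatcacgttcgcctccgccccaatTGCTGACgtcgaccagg

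The printed match began at -132 in Atp6v1a, -99 in Ctsd, -65 in Atp6ap2, -13 and 4 in Ctsa, which holds it 2 times, -4 in Atp6v0d1 and 2 in Atp6v0e, in bases from the RefSeq start, and the GENCODE gene begins upstream of that start for Atp6v1a, Atp6v0e, Ctsd and Ctsa. RefSeq windows were found for 34 of the member genes, with 38 windows in all, and both strands were searched. TCACGTGA stood in 5 of the 38 windows, those of Atp6v0d1, Atp6v0e, Atp6v1a, Ctsa and Ctsd, against 0.974% of 32851 windows of the same length over the genome outside chromosome 18. The shorter E-box CACGTG, which lies inside it, stood in 9 of the 38 windows, the other 4 being Atp6v0b, Ctsf, Ctsl and Lamp1, against 7.15% of all windows. The full CLEAR motif, which extends TCACGTGA by a base on each side, stood in 0 of the 38 windows and in 0.326% of all windows. TGCTGAC or its reverse complement GTCAGCA stood in the windows of Atp6ap2, Atp6v1g2 and Ctsg and in 4.67% of all windows. Of the 5 genes with TCACGTGA, Atp6v1a fell in S64F/+ islets of both sexes and Atp6v0e fell in males, while Atp6v0d1, Ctsa and Ctsd did not pass the test in either sex. TCACGTGA was picked as a motif tied to lysosomal genes, so its share in these windows is a description and not a test. A match of letters is a description of the window and not a mapped binding site.

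Most of the pump was well expressed, and where a subunit has several genes 1 isoform made up most of the transcripts. Levels are compared between genes as CPM per kilobase of merged exons. Lamp1 led at 166.4 ± 10.3 CPM per kilobase in male S64F/+ and 219.6 ± 13.8 in male WT islets, followed in male WT by Atp6ap2 at 95.96 ± 8.78, Atp6v1g1 at 94.86 ± 13.1, Atp6v0b at 87.1 ± 2.81 and Atp6ap1 at 80.05 ± 3.88. The ranges of the last 4 overlapped in male WT islets, except that all Atp6v0b libraries lay above those of Atp6ap1, so their order is set only in part. Ctsd, the aspartic cathepsin, at 65.5 ± 5.09 CPM per kilobase in male WT islets was the highest cathepsin there, ahead of Ctsb at 39.28 ± 1.25 and Ctsz at 37.91 ± 0.622. In male S64F/+ islets Ctsd stood at 60.43 ± 8.13, Ctsz at 59.04 ± 5.81 and Ctsb at 53.2 ± 4.24 CPM per kilobase, and the ranges of the 3 genes overlapped. The lower end of the tested cathepsins was held in male WT islets by Ctsc at 1.315 ± 0.216, Ctsh at 1.159 ± 0.276, Ctsk at 0.9387 ± 0.139 and Ctse at 0.04994 ± 0.00792 CPM per kilobase.

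**Figure D1:**
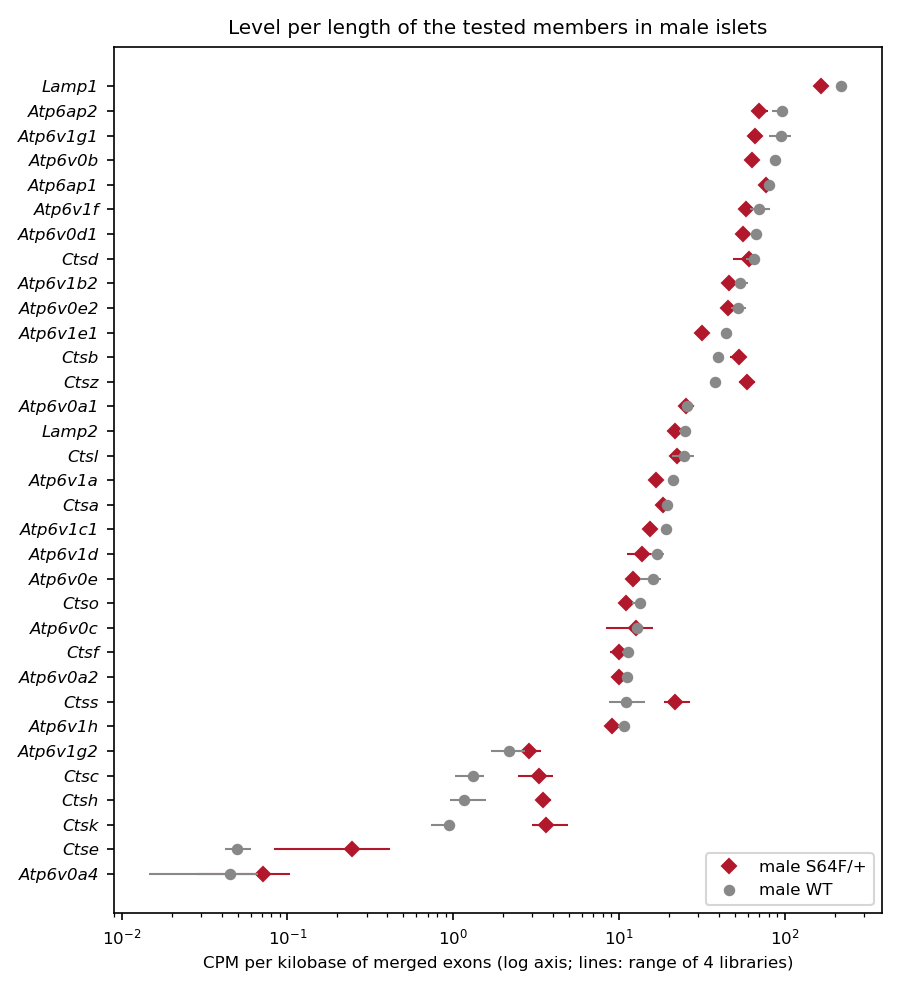
Level of each tested member except Atp6v0d2 in male islets, in TMM-scaled CPM per kilobase of merged exons on a log axis, with diamonds for the mean of 4 male S64F/+ libraries, circles for the mean of 4 male WT libraries and lines for the range. Lamp1 is at the top and Atp6v0a4 and Ctse at the bottom, and the diamonds of Ctsc, Ctsh, Ctsk and Ctss lie to the right of their circles.

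Isoform shares per length showed the same gene in the lead in every group. Atp6v0a1 made up 71.5 ± 1.3% of the a-subunit transcripts in male S64F/+ islets, 69.5 ± 0.44% in male WT, 74.3 ± 0.86% in female S64F/+ and 73.6 ± 1.7% in female WT islets, with nearly all of the rest from Atp6v0a2. Atp6v0e2, a small V0 subunit, made up 78.8 ± 0.95% of its pair with Atp6v0e in male S64F/+ islets and 76.5 ± 2.0% in male WT islets. Atp6v1b2, Atp6v1c1, Atp6v1e1 and Atp6v0d1 each made up at least 99.0% of their subunit in every library. Atp6v1g2, the G isoform known from neurons, took 4.16 ± 0.65% of the G transcripts in male S64F/+ and 2.29 ± 0.7% in male WT islets, and 2.49 ± 0.51% in female S64F/+ and 3.11 ± 0.81% in female WT islets. Its own level did not pass the test in males (log2 fold change 0.39 ± 0.19, adjusted p 0.131) or in females (-0.32 ± 0.17, adjusted p 0.182).

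The 11 members below the count filter were nearly silent. Over all 18 libraries Ctsw, a cathepsin of cytotoxic lymphocytes, summed to 133 counts, Atp6v1b1 to 92, Atp6v1c2 to 68, Atp6ap1l to 14, Atp6v1g3 to 3, and Atp6v1e2 and the neutrophil protease Ctsg to 1 each. Ctsj, Ctsm, Ctsq and Ctsr, which belong to the placental cathepsins of rodents, had 0 counts in all 18 libraries.

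The comparison of S64F/+ with WT islets asks what the variant changes in each sex, and the series' title names a dysfunction biased to males. In males 8 members rose (Atp6v0d2, Ctsb, Ctsc, Ctse, Ctsh, Ctsk, Ctss and Ctsz) and 11 fell (Atp6v1a, Atp6v1c1, Atp6v1d, Atp6v1e1, Atp6v1g1, Atp6v1h, Atp6v0b, Atp6v0e, Atp6ap2, Lamp1 and Ctso), out of 34 tested. Among all 18364 genes tested in males 27.6% were called, 15.4% higher and 12.3% lower. Atp6v0d2 passed the count filter only through the male S64F/+ libraries, so its calls as higher depend on the group that let it pass. For Ctse only S64F/+ of the male groups reached the filter's level, so its male call depends on that group in part. In females 5 members rose (Ctsb, Ctsc, Ctsh, Ctss and Ctsz) and 2 fell (Atp6v1a and Atp6v0a2), against 21.2% of all genes, 10.2% higher and 11% lower. The female share of 7 in 34 lies near that background. The 5 cathepsins that rose in females were among the 8 members that rose in males. The male and female comparisons share no libraries, but both come from the same fit. How many of all genes higher in females were also higher in males was not counted. The overlap of these cathepsins therefore has no background share beside it and is a description only. The median log2 fold change of the tested members was -0.18 in males, beside -0.0261 over all genes, and 0.0148 in females, beside 0.0165. S64F/+ and WT libraries did not overlap for 35.1% of all genes tested in males and 11.6% in females. Among the 34 tested members, 8 lay apart as higher and 15 as lower in males, and 5 and 2 in females. Calls are at a Benjamini-Hochberg adjusted p below 0.05 over all genes in edgeR's quasi-likelihood test, which is two-sided, and DESeq2 called the same 8 and 11 members in males. The strand setting of the counting is not given in the sources used here, and among the tested members exons of Atp6v1e1, Atp6v1g2, Atp6v1h, Atp6v0a2, Atp6v0a4, Atp6v0b, Ctsa, Ctsb, Ctsl, Ctsz and Lamp1 overlap those of a gene on the other strand, whose reads cannot be told apart from theirs without it. Exons of Ctsd, Ctsl and Atp6v0a4 also overlap those of another gene on the same strand, so their counts are uncertain whatever the setting. In bulk islets fewer cells of a type and less RNA per cell cannot be told apart.

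**Figure D2:**
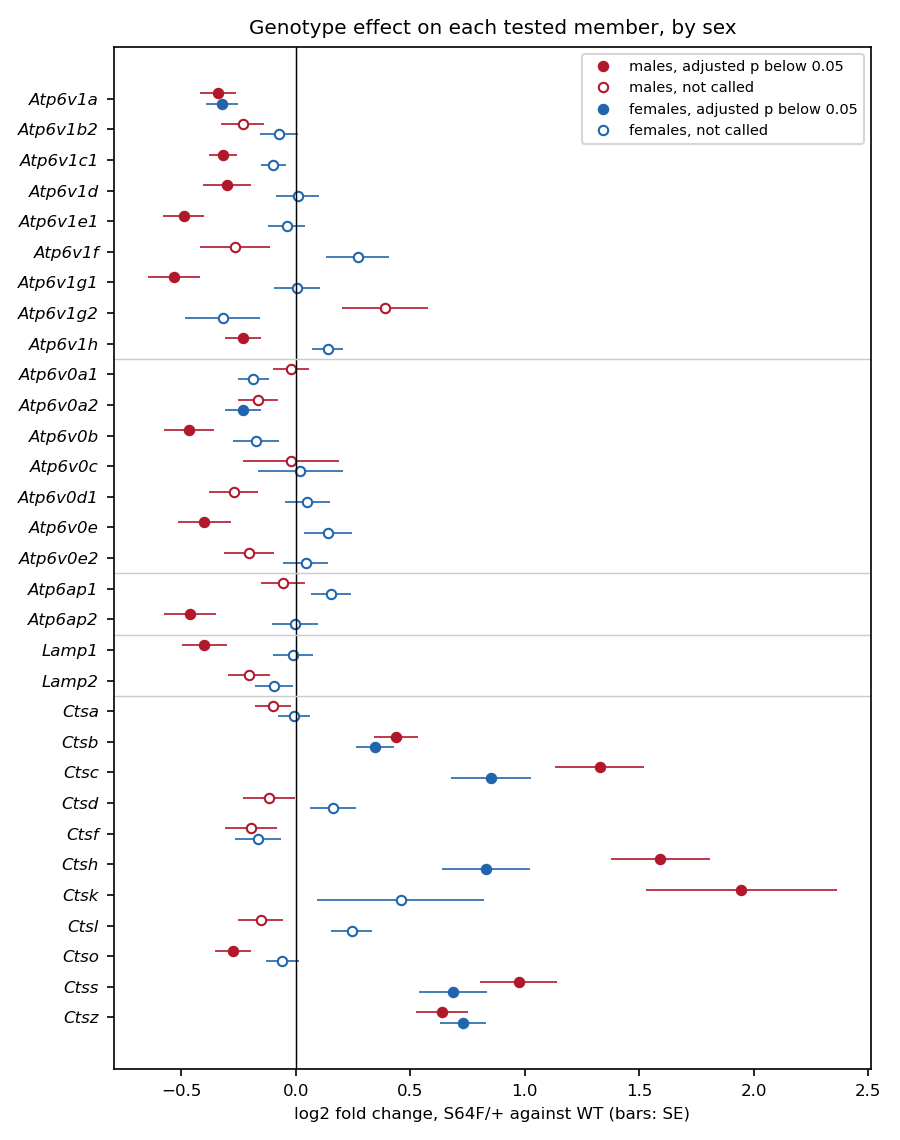
Log2 fold change of S64F/+ against WT islets for 31 tested members, by role from the V1 sector at the top to the cathepsins at the bottom, with bars for the SE, red for males, blue for females and filled points for an adjusted p below 0.05. Filled red points to the left of 0 lie mostly among the pump genes and filled points of both colours to the right of 0 among the cathepsins. Atp6v0a4, Atp6v0d2 and Ctse, which have few counts, are not drawn.

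In the V1 sector 6 of the 9 tested genes fell in male S64F/+ islets and 1, Atp6v1a, fell in female S64F/+ islets. Of all genes tested, 12.3% were lower in males and 11% in females, and the female share of 1 in 9 lies near that. None rose in either sex with edgeR or DESeq2, and at an unadjusted p below 0.05 only Atp6v1g2 was higher, in males (p 0.0498). The sector's median log2 fold change was -0.299 in males and -0.0397 in females. Atp6v1e1 (chr6:120794305-120822793, minus strand), a subunit of the peripheral stalks that hold the catalytic head still, had 128.8, 133.4, 118.2 and 137.4 CPM in male S64F/+ libraries against 172.7, 169.5, 191.3 and 192.8 CPM in male WT libraries. All 4 male S64F/+ libraries lay below all 4 male WT libraries. The log2 fold change was -0.49 ± 0.09 (adjusted p 0.000488). Female S64F/+ libraries had 166.0, 164.5, 176.9, 175.7 and 166.2 CPM against 177.5, 152.9, 156.7, 210.2 and 175.6 CPM in female WT libraries, and these ranges overlapped (-0.04 ± 0.08, adjusted p 0.773).

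Atp6v1g1, which pairs with the E subunit in the same stalks, had the largest fall in males among the members called lower. It stood at 78.36, 80.02, 68.08 and 71.7 CPM in male S64F/+ libraries against 99.63, 91.35, 115.7 and 124.0 CPM in male WT libraries, again with no overlap (log2 fold change -0.53 ± 0.11, adjusted p 0.0019). In females it averaged 101.4 ± 14.7 CPM in S64F/+ and 100.9 ± 10.4 CPM in WT islets (0.01 ± 0.10, adjusted p 0.976).

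Atp6v1a (chr16:44085402-44139705, minus strand), the catalytic subunit that binds and hydrolyses ATP, was the member that fell in both sexes. Male S64F/+ libraries had 97.75, 104.4, 92.04 and 110.8 CPM against 126.2, 125.5, 120.7 and 139.5 CPM in male WT libraries. Female S64F/+ libraries had 102.7, 101.0, 87.58, 88.65 and 87.56 CPM against 118.2, 107.1, 115.9, 120.1 and 123.3 CPM in female WT libraries. The ranges were apart in both sexes, with log2 fold changes of -0.34 ± 0.08 in males (adjusted p 0.0032) and -0.32 ± 0.07 in females (adjusted p 0.00288). The male minus female difference was -0.02 ± 0.10 (adjusted p 0.947).

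The other V1 falls in males were smaller. Atp6v1c1, whose subunit ties the stalks to the V0 sector when the pump assembles, averaged 86.55 ± 4.13 CPM in male S64F/+ and 107.9 ± 1.73 CPM in male WT islets (-0.32 ± 0.06, adjusted p 0.000646). Atp6v1d, part of the central rotor, averaged 62.99 ± 9.39 and 77.51 ± 6.79 CPM in the same groups (-0.30 ± 0.10, adjusted p 0.0411), and its male ranges overlapped. Atp6v1h, the subunit that silences ATP hydrolysis in a detached V1 sector, had 87.24, 88.05, 84.81 and 94.09 CPM in male S64F/+ libraries against 98.69, 96.19, 106.7 and 113.8 CPM in male WT libraries. Those libraries did not overlap (-0.23 ± 0.08, adjusted p 0.0344), while female Atp6v1h averaged 97.73 ± 8.65 CPM in S64F/+ and 88.71 ± 5.92 CPM in WT islets (0.14 ± 0.07, adjusted p 0.168). The calls of Atp6v1d and Atp6v1h were lost in 10 and 8 of 24 alternative settings. Atp6v1b2, the B subunit, and Atp6v1f, of the rotor, had log2 values of -0.23 ± 0.09 and -0.27 ± 0.15 in males and did not pass (adjusted p 0.0713 and 0.216). In females Atp6v1f had 0.27 ± 0.14 (adjusted p 0.17), and it passed as higher with the replicate block (adjusted p 0.0339).

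**Figure D3:**
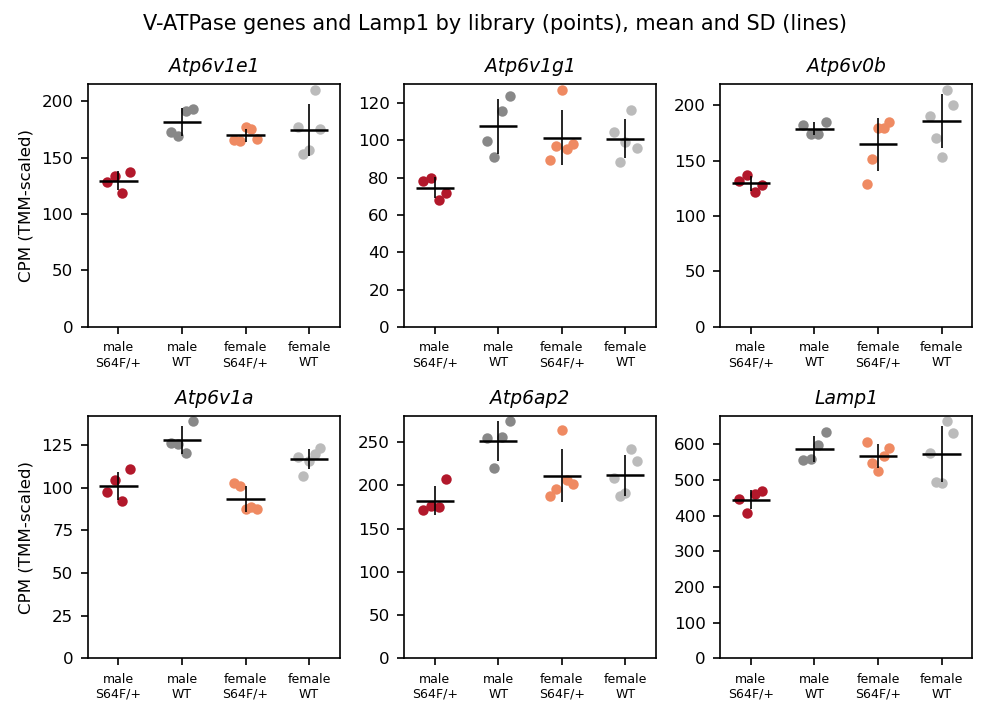
TMM-scaled CPM of Atp6v1e1, Atp6v1g1, Atp6v0b, Atp6v1a, Atp6ap2 and Lamp1 in each library (points), with the mean and SD (lines), for male S64F/+, male WT, female S64F/+ and female WT islets. Male S64F/+ libraries lie below all male WT libraries in each panel, and of the 6 genes Atp6v1a alone has female groups that do not overlap. Of all genes tested, 35.1% had male groups apart in either direction and 11.6% had female groups apart.

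Of the 9 V0 genes, 2 fell and 1, Atp6v0d2, rose in male S64F/+ islets, and 1 fell in female S64F/+ islets. These shares are near the 27.6% of all genes called in males and below the 21.2% called in females. Atp6v0b, a proton-binding subunit of the rotating ring, had 131.5, 137.0, 121.4 and 127.6 CPM in male S64F/+ libraries against 181.8, 173.7, 173.9 and 185.2 CPM in male WT libraries. The groups were far apart (-0.47 ± 0.11, adjusted p 0.00397), and in females the averages were 164.7 ± 24.1 CPM in S64F/+ and 185.6 ± 24.1 CPM in WT islets (-0.17 ± 0.10, adjusted p 0.23). Atp6v0e, a small membrane subunit, averaged 45.23 ± 2.55 CPM in male S64F/+ and 59.58 ± 7.15 CPM in male WT islets (-0.40 ± 0.12, adjusted p 0.0158), a call lost without male WT replicate 3 and with library-size scaling. In females it averaged 60.7 ± 9.4 CPM in S64F/+ and 55.0 ± 6.94 CPM in WT islets (0.14 ± 0.10, adjusted p 0.367). Atp6v0a2, an a subunit known from the Golgi and endosomes, was lower in females, at 54.65 ± 6.42 CPM in S64F/+ and 64.2 ± 5.15 CPM in WT islets (-0.23 ± 0.08, adjusted p 0.0406), but 13 of 24 alternatives ended that call, the fit with the replicate number as a block among them (adjusted p 0.0775). Atp6v0a1, which carries most of the a-subunit transcripts, had log2 values of -0.02 ± 0.08 in males and -0.18 ± 0.07 in females (adjusted p 0.885 and 0.0678). Atp6v0c, the main ring subunit, had -0.02 ± 0.21 and 0.02 ± 0.19 (adjusted p 0.96 and 0.954).

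Atp6v0d2 (chr4:19876841-19922605, minus strand), the isoform of the d subunit known from osteoclasts and macrophages, was detected mainly in male S64F/+ islets. Its libraries there held 23, 29, 73 and 21 counts, 146 in all, against 0 counts in all 4 male WT libraries. Set against a floor of 3 counts over the male WT group, or 0.0258 CPM, the male S64F/+ mean was 31.1-fold above that floor. That fold leaves out the spread of the male S64F/+ libraries, whose lowest value was 0.3281 CPM. Atp6v0d2 passed the count filter only through these libraries, so its edgeR call as higher (adjusted p 0.000175) depends on the group that let it pass. Female S64F/+ libraries summed to 7 counts and female WT libraries to 3, a ratio of 3.36 with an exact 95% interval from 0.767 to 20.1 that covers counting error only. At 0.8043 ± 0.509 CPM in male S64F/+ islets it remained a small share, 0.528 ± 0.34% of the d-subunit transcripts per length, beside Atp6v0d1.

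Of the accessory proteins, Atp6ap2, also known as the (pro)renin receptor and needed for assembly of the pump, fell in males. It had 172.0, 175.8, 175.0 and 206.8 CPM in male S64F/+ libraries against 254.8, 219.6, 255.8 and 274.7 CPM in male WT libraries, which did not overlap (-0.46 ± 0.11, adjusted p 0.0045). In females it averaged 211.1 ± 30.6 CPM in S64F/+ and 211.4 ± 23.5 CPM in WT islets (0.00 ± 0.10, adjusted p 0.989). Atp6ap1, the other accessory protein with enough counts, had log2 values of -0.06 ± 0.10 in males and 0.15 ± 0.09 in females (adjusted p 0.716 and 0.226).

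Lamp1 (chr8:13159161-13175338, plus strand) had 445.5, 406.5, 460.8 and 468.0 CPM in male S64F/+ libraries against 556.3, 560.1, 597.8 and 635.1 CPM in male WT libraries. Every male S64F/+ library was below every male WT library (-0.40 ± 0.10, adjusted p 0.00521). Female averages were 567.4 ± 33.4 CPM in S64F/+ and 572.1 ± 78.6 CPM in WT islets (-0.01 ± 0.09, adjusted p 0.944). Lamp2, which is also the receptor of chaperone-mediated autophagy, had -0.20 ± 0.09 in males and -0.09 ± 0.08 in females and did not pass (adjusted p 0.111 and 0.455). Atp6ap1, Atp6ap2 and Lamp2 are on the X chromosome.

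The size of the male falls, and how many were called, moved with the scaling of the libraries. With plain library totals in place of TMM, the median log2 fold change of all genes in males was 0.193 instead of -0.0261, a shift of 0.219, and the share of all male calls that were higher was 86.4% instead of 55.6%. Under that scaling Atp6v1e1, Atp6v1g1 and Atp6ap2 kept their calls as lower and the other 8 lower members lost theirs. No called member changed sign, and Atp6v1h came to -0.0048 on the log2 scale. The tested members' median moved with that of all genes, to 0.0428. All 8 members called higher in males kept that call, and Atp6v1g2 was called higher as well.

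**Figure D4:**
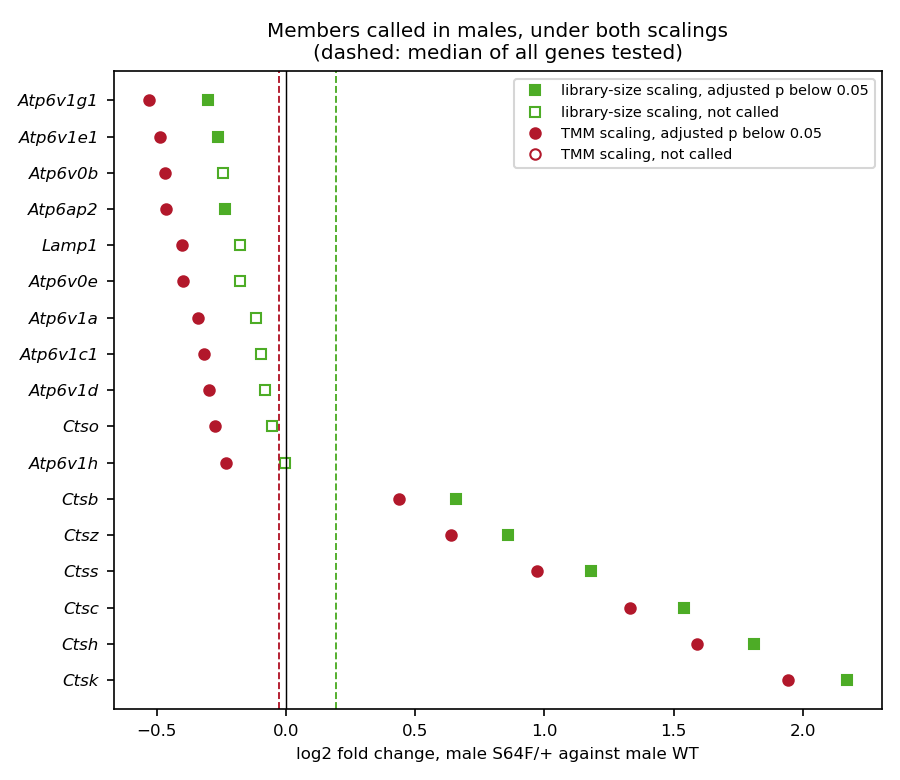
Log2 fold change of male S64F/+ against male WT islets for 17 called members with library-size scaling (green squares) and with TMM scaling (red circles); filled symbols have an adjusted p below 0.05 and dashed lines give the median of all genes under each scaling. All members move to the right with library-size scaling, and of the members to the left of 0 only Atp6v1g1, Atp6v1e1 and Atp6ap2 stay filled. Atp6v0d2 and Ctse are not drawn.

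Of the 12 tested cathepsins, 7 rose and 1 fell in male S64F/+ islets, and 5 rose and none fell in female S64F/+ islets. Among all genes tested, 15.4% were higher and 12.3% lower in males, and 10.2% were higher and 11% lower in females. The class had a median log2 fold change of 0.538 in males and 0.402 in females. Ctsz (chr2:174427493-174439039, minus strand), a carboxypeptidase, had 76.39, 80.11, 94.82 and 89.01 CPM in male S64F/+ libraries against 53.63, 55.26, 54.12 and 55.5 CPM in male WT libraries. Female S64F/+ libraries had 76.89, 78.78, 101.4, 100.1 and 93.27 CPM against 47.48, 59.54, 44.1, 61.94 and 58.12 CPM in female WT libraries. The WT libraries of both sexes stayed below all S64F/+ libraries, with log2 fold changes of 0.64 ± 0.11 in males (adjusted p 0.000362) and 0.73 ± 0.10 in females (adjusted p 4.26e-05).

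Ctsb, an abundant cysteine protease that can activate trypsinogen in the pancreas, had the smallest rise of the shared cathepsins. It had 284.0, 328.5, 338.0 and 337.2 CPM in male S64F/+ libraries against 229.0, 247.4, 236.9 and 237.4 CPM in male WT libraries. Female S64F/+ libraries had 282.5, 316.6, 296.4, 324.9 and 305.5 CPM against 218.2, 222.7, 207.8, 272.9 and 278.8 CPM in female WT libraries. The groups did not overlap in either sex, though female WT 4 and 5 came close to female S64F/+ 1 (0.44 ± 0.09, adjusted p 0.00201 in males; 0.35 ± 0.08, adjusted p 0.00709 in females).

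Ctss, the protease that trims the invariant chain of class II antigen presentation, had 25.42, 27.73, 36.59 and 28.53 CPM in male S64F/+ libraries against 13.82, 19.44, 15.1 and 11.74 CPM in male WT libraries. In females it averaged 25.9 ± 3.89 CPM in S64F/+ and 16.11 ± 3.0 CPM in WT islets. The rises were 0.97 ± 0.17 in males (adjusted p 0.000301) and 0.69 ± 0.15 in females (adjusted p 0.00298) on the log2 scale, with no overlap in either sex. Ctsc, a dipeptidyl peptidase that activates the serine proteases of immune granules, had 20.43, 14.18, 23.05 and 19.17 CPM in male S64F/+ libraries against 5.916, 8.902, 7.683 and 8.054 CPM in male WT libraries. Female libraries averaged 13.04 ± 2.93 CPM in S64F/+ and 7.243 ± 1.46 CPM in WT islets, and the lowest female S64F/+ library, at 9.417 CPM, stood just above the highest female WT library, at 8.974 CPM. The log2 fold changes of Ctsc were 1.33 ± 0.20 in males (adjusted p 7.41e-05) and 0.85 ± 0.17 in females (adjusted p 0.00182).

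Ctsh (chr9:90054152-90076089, plus strand), an aminopeptidase, had 17.45, 14.82, 15.79 and 14.89 CPM in male S64F/+ libraries against 4.312, 4.668, 7.051 and 4.825 CPM in male WT libraries. Female S64F/+ libraries had 9.684, 8.067, 10.51, 9.478 and 7.548 CPM against 2.8, 5.488, 7.139, 5.683 and 4.51 CPM in female WT libraries. Both sexes had separate groups. Every male S64F/+ library was also above every female S64F/+ library, and these 2 groups lay apart for 16.2% of all genes. The log2 fold changes were 1.59 ± 0.22 in males, a 3.01-fold rise (adjusted p 3.3e-05), and 0.83 ± 0.19 in females, a 1.78-fold rise (adjusted p 0.00449). The male minus female difference of 0.76 ± 0.28 did not pass (adjusted p 0.116).

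Ctsk, the collagen-degrading protease of osteoclasts, had 7.405, 4.509, 5.494 and 4.547 CPM in male S64F/+ libraries against 1.106, 1.516, 1.497 and 1.558 CPM in male WT libraries. The male groups were apart, with a log2 fold change of 1.94 ± 0.42 (adjusted p 0.00188). Female S64F/+ libraries had 1.614, 2.91, 3.864, 2.019 and 0.8244 CPM against 1.477, 2.419, 2.462, 1.065 and 0.6612 CPM in female WT libraries and overlapped (0.46 ± 0.36, adjusted p 0.406). The sex difference in the effect was 1.49 ± 0.55 and did not pass (adjusted p 0.11). Ctse, an aspartic protease found in immune and surface epithelial cells, was near the limit of detection. It had 1.313, 0.6177, 0.2636 and 0.9045 CPM in male S64F/+ libraries against 0.1659, 0.1444, 0.133 and 0.1899 CPM in male WT libraries. The log2 fold change of 2.30 ± 0.77 passed in males (adjusted p 0.0327), although 7 of 24 alternatives ended the call, and that of 1.61 ± 0.73 in females did not (adjusted p 0.125). Of the male groups only S64F/+ reached the level of the count filter, so the male call of Ctse depends in part on the group that let it pass.

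**Figure D5:**
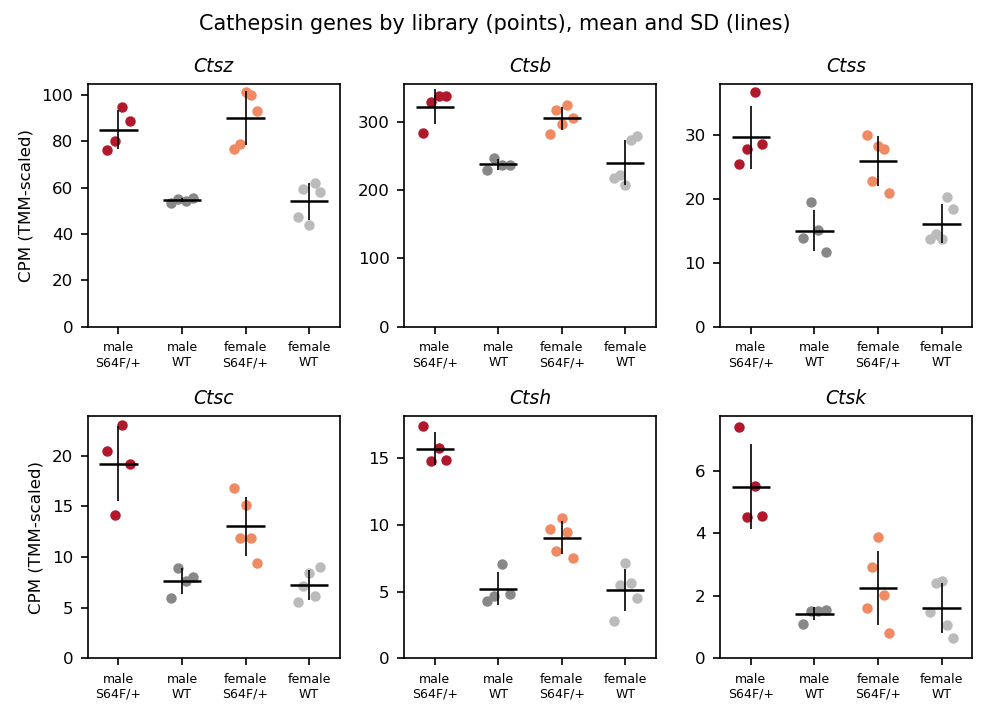
TMM-scaled CPM of Ctsz, Ctsb, Ctss, Ctsc, Ctsh and Ctsk in each library (points), with the mean and SD (lines), for male S64F/+, male WT, female S64F/+ and female WT islets. S64F/+ libraries lie above WT libraries in both sexes for the first 5 genes, and for Ctsk in males. Of all genes tested, 35.1% had groups apart in males and 11.6% in females, in either direction.

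No other tested cathepsin passed as higher. Ctso fell in males, at 56.51 ± 4.65 CPM in S64F/+ against 68.34 ± 4.59 CPM in WT islets (-0.27 ± 0.08, adjusted p 0.0149), a call lost without male S64F/+ replicate 2 and with library-size scaling. In females Ctso averaged 65.66 ± 5.08 CPM in S64F/+ and 68.33 ± 4.4 CPM in WT islets (-0.06 ± 0.07, adjusted p 0.616). Ctsd, the main aspartic protease of lysosomes, averaged 142.1 ± 19.1 CPM in male S64F/+ and 154.0 ± 11.9 CPM in male WT islets, and 166.5 ± 15.4 CPM in female S64F/+ and 148.6 ± 19.8 CPM in female WT islets. Neither comparison of Ctsd passed (-0.12 ± 0.11, adjusted p 0.483 in males; 0.16 ± 0.10, adjusted p 0.265 in females). Ctsl, which can process proneuropeptides in secretory vesicles, had -0.15 ± 0.10 in males (adjusted p 0.273) and 0.24 ± 0.09 in females (adjusted p 0.0564). The female value of Ctsl was past the threshold in 6 of 24 alternatives, with the replicate block among them (adjusted p 0.0279). Ctsa, a serine carboxypeptidase that protects beta-galactosidase and neuraminidase, and Ctsf did not pass in either sex, with log2 values between -0.20 and -0.01.

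Whether the genotype effect differs between the sexes was tested directly as the male minus the female log2 fold change. Atp6v1e1 was the member that passed, at -0.45 ± 0.12 (adjusted p 0.0421), where 4.47% of all genes passed, 2.87% with a higher and 1.6% with a lower effect in males. It kept that call in 7 of 23 alternatives. Atp6v1h at -0.37 ± 0.10 (adjusted p 0.0508), Atp6v1g1 at -0.54 ± 0.15 (adjusted p 0.052), Atp6v0e at -0.54 ± 0.16 (adjusted p 0.0553) and Atp6ap2 at -0.46 ± 0.15 (adjusted p 0.0762) lay just outside the threshold. An unadjusted p below 0.05 was reached by 15 of the 34 members. The number of members that passed was 8 with DESeq2 (2 higher and 6 lower), 9 without female WT replicate 4, 6 without female S64F/+ replicate 1 and 4 without male WT replicate 2. It was 0 without any 1 of the male S64F/+ libraries, male WT replicates 3 and 4, female WT replicates 2, 3 and 5 or female S64F/+ replicates 2, 4 and 5. Without male WT replicate 1 only Atp6v0e passed, and without female WT replicate 1 only Ctsh. With the replicate block 3 members passed, Atp6v1e1 (adjusted p 0.0464), Atp6v1f (-0.54, adjusted p 0.0379) and Ctsk (1.46, adjusted p 0.0289). The V1 sector had a median difference of -0.308 and the cathepsins 0.0304, beside 0.0128 over all genes. With library-size scaling the median over all genes was 0.253, the share of all calls that were higher was 97.2% instead of 64.2%, and 0 members passed.

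Male and female islets of the same genotype were compared next, and these comparisons use the libraries of the genotype comparisons again. In WT islets 1 member passed, against 2.36% of all genes, 1.73% higher and 0.637% lower. Ctsf, a cysteine protease, was lower in male WT islets, at 57.39 ± 3.66 CPM against 76.88 ± 8.07 CPM in female WT islets (-0.42 ± 0.11, adjusted p 0.0452), a call lost in 13 of 22 alternatives. In S64F/+ islets 15 members passed, against 16.1% of all genes. Atp6v0a2, Atp6v0d2, Ctsc, Ctsh and Ctsk were higher in male S64F/+ than in female S64F/+ islets, where 8% of all genes were higher, and Atp6v0b, Atp6v0d1, Atp6v0e, Atp6v1d, Atp6v1e1, Atp6v1f, Atp6v1g1, Ctsf, Ctsl and Lamp1 were lower, where 8.12% were lower. Atp6v1f, a rotor subunit, had the largest of these falls, at 62.08 ± 3.71 CPM in male S64F/+ against 89.68 ± 14.9 CPM in female S64F/+ islets (-0.53 ± 0.15, adjusted p 0.0215). Leaving out male S64F/+ replicate 3 brought the count to 7, replicate 2 to 8 and replicate 1 to 9, and leaving out female S64F/+ replicate 4 also gave 9. Library-size scaling gave 9 members, 8 higher and 1 lower, and the share of all calls that were higher was 88.1% instead of 49.6%.

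Other lysosomal genes were read from lists of related function, each gene in the same fit. Beside the counts of these lists and of the cell markers below, 15.4% of all genes were higher and 12.3% lower in males. In females 10.2% of all genes were higher and 11% lower. The male rises among the hydrolases, the membrane genes and the granule genes lie near the male share. The female rises among the hydrolases and the membrane genes, and the female falls among the V-ATPase factors, lie near the female shares. Of 41 lysosomal hydrolases and cofactors 6 rose and 14 fell in males, and 4 rose and 8 fell in females. The acid ceramidase Asah1 fell in both sexes (-0.83 ± 0.10 in males, -0.38 ± 0.09 in females). Gm2a, the activator protein for ganglioside breakdown, rose in both (0.57 ± 0.09 in males, 0.58 ± 0.08 in females), as did Lgmn, the protease that processes several cathepsins (0.62 ± 0.12 in males, 0.66 ± 0.11 in females). With library-size scaling 9 hydrolases rose and 6 fell in males, where 4248 of all genes tested were higher and 666 lower.

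Among 22 tested lysosomal membrane proteins 3 rose and 6 fell in males, and 2 rose and 7 fell in females. Scarb2, the sorting receptor of glucocerebrosidase, rose to 270.4 CPM in male S64F/+ against 183.4 CPM in male WT islets (0.56 ± 0.08, adjusted p 3.58e-05) and to 245.9 CPM in female S64F/+ against 178.5 CPM in female WT islets (0.46 ± 0.07, adjusted p 0.000102). Slc36a1, an amino acid exporter, fell in both sexes (-0.43 ± 0.09 in males, -0.66 ± 0.08 in females). Of 21 tested genes of lysosomal biogenesis and nutrient sensing, 1 rose and 8 fell in males, and 4 rose and 5 fell in females. Rragd, a Rag GTPase that recruits mTORC1 to the lysosome, averaged 41.57 CPM in male S64F/+ against 74.82 CPM in male WT islets (-0.85 ± 0.11, adjusted p 1.79e-05) and 40.71 CPM in female S64F/+ against 75.12 CPM in female WT islets (-0.88 ± 0.10, adjusted p 4.16e-06). Its regulators Flcn (-0.55 ± 0.10 in males, -0.64 ± 0.09 in females) and Fnip1 (-0.46 ± 0.09 in males, -0.50 ± 0.08 in females) fell in both sexes as well. Of 16 sorting genes none rose with edgeR or DESeq2 (0 in males and 2 in females at an unadjusted p below 0.05) and 3 fell in each sex, with Gga2, an adaptor for mannose 6-phosphate receptors, falling in both (-0.64 ± 0.10 in males, -0.72 ± 0.09 in females). With library-size scaling in males, 4 membrane genes rose and 1 fell, 5 biogenesis genes rose and 2 fell, and 1 sorting gene rose and 1 fell. Under that scaling the male calls of Slc36a1 (-0.22, adjusted p 0.195) and Fnip1 (-0.24, adjusted p 0.146) were lost.

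Of 17 factors that assemble or bind the V-ATPase, none rose and 8 fell in males, and 2 of these, Wdr7 and Tbc1d24, fell in females. None rose with DESeq2 either, and 2 in males and 1 in females were higher at an unadjusted p below 0.05. The median log2 fold change was -0.273 in males and -0.0222 in females, beside -0.0261 and 0.0165 over all genes. Wdr7, which associates with the pump in synaptic vesicles, had -0.48 ± 0.10 in males and -0.53 ± 0.09 in females (adjusted p 0.00209 and 0.000589). With library-size scaling 2 of the 17 rose and 1 fell in males, and the male calls of Wdr7 (-0.26, adjusted p 0.165) and Tbc1d24 (-0.28, adjusted p 0.245) were lost. Of 7 tested cathepsin inhibitors 2 rose in males and 3 in females. Cst3, the secreted inhibitor cystatin C, averaged 650.1 CPM in female S64F/+ against 365.1 CPM in female WT islets (0.83 ± 0.12, adjusted p 9.36e-05), and 436.6 CPM in male S64F/+ against 349.1 CPM in male WT islets (0.32 ± 0.14, adjusted p 0.0883). Serpina3g, a serpin that can inhibit cathepsins, averaged 8.758 CPM in male S64F/+ against 0.07401 CPM in male WT islets (adjusted p 3.34e-05) and 0.6137 CPM in female S64F/+ against 0.03839 CPM in female WT islets (adjusted p 0.00235); it belongs to a family of near-identical copies, so its counts are uncertain. Of 16 genes of the insulin granule 2 rose and 5 fell in males and 4 rose and 5 fell in females. The granule zinc transporter Slc30a8 fell in both sexes (-0.43 ± 0.09 in males, -0.43 ± 0.08 in females) and the prohormone convertase Pcsk1 rose in both (0.45 ± 0.12 in males, 0.69 ± 0.11 in females). With library-size scaling 3 granule genes rose and none fell in males, where Slc30a8 lost its call (-0.21, adjusted p 0.226).

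Markers of other cells also differed between S64F/+ and WT islets, and in each of the 4 lists that follow more of them were called in males than in females. Of 14 macrophage markers 9 rose and 1, C1qa, fell in males, and 7 rose in females. Their summed level ran from 148.7 to 191.6 CPM in male S64F/+ against 107.5 to 145 CPM in male WT libraries. In females it ran from 118.4 to 209.8 CPM in S64F/+ against 96.17 to 138.9 CPM in WT libraries. C1qa held much of the male WT sum, so the male sums understate the rise of the others. The list's median log2 fold change was 1.2 in males and 0.812 in females. The defining marker Adgre1 averaged 6.409 CPM in male S64F/+ against 3.175 CPM in male WT islets and 5.736 CPM in female S64F/+ against 3.274 CPM in female WT islets. Of 12 markers of stellate cells and fibroblasts 11 rose in males and 1 in females, with sums from 1662 to 2500 CPM in male S64F/+ against 253.9 to 582.9 CPM in male WT libraries and from 312.6 to 1121 CPM in female S64F/+ against 343.8 to 907.6 CPM in female WT libraries. Of 10 endothelial markers 7 rose in males and 0 in females with edgeR (2 higher and 2 lower in females at an unadjusted p below 0.05), and the effect on 4 of them differed between the sexes. Of 10 ductal markers 7 rose in males and 5 in females. Their part in the changes of the cathepsins and of the pump was not tested.

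Islet cell markers moved too, and in every group the beta-cell markers had the highest summed level of all marker lists. Of 10 beta-cell markers, Mafa among them, 9 fell in males and 8 in females, with sums from 127000 to 141200 CPM in male S64F/+ against 212700 to 290300 CPM in male WT libraries and from 132500 to 244800 CPM in female S64F/+ against 167600 to 308400 CPM in female WT libraries. Of 8 alpha-cell markers 2 rose in males and 8 in females, and of 6 delta-cell markers 4 rose and 1 fell in each sex. Of 10 acinar markers 0 passed with edgeR in either sex and 0 had an unadjusted p below 0.05, with sums from 4281 to 18160 CPM in male S64F/+ against 2858 to 28210 CPM in male WT libraries. Of the markers with enough counts, 1 of 5 lymphocyte markers rose and 1 fell in each sex, and the only tested gene of neutrophils and mast cells, Kit, rose in males. Slc30a8 stands in both the granule and the beta-cell list. The part of these cells in the results was not tested.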

How the data were processed

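Per the labels' protocols, 18 libraries of whole-islet RNA were sequenced paired-end. The authors deposited raw counts per gene and library, unfiltered, on GRCm38. The submitters' processing notes list FastQC, MultiQC, STAR, featureCounts and DESeq2, without versions. Annotation and strand setting are not given in the sources. FPKM deposited by the authors are the same counts over the total and over 1 length for each gene (checked on 33562 genes) and were not tested. Of 53900 features 99 carry no mouse identifier and hold 0 counts, and these were left out.

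The test was edgeR 4.0.16 (R 4.3.3): filterByExpr by group (minimum count 10, minimum total 15; 18364 genes left), TMM factors and a robust quasi-likelihood fit over the 18 libraries with the 4 groups as coefficients (biological coefficient of variation 24.4%). P-values are two-sided and were adjusted by Benjamini-Hochberg over all tested genes within a contrast, at 0.05. CPM use TMM-scaled library sizes, errors of means are SD over libraries and errors of log2 fold changes are SE. Where a group held 0 counts, the fold was bounded against 3 counts over the group. Groups came from the sample titles. Alternatives were DESeq2 1.42.0, other scalings, no filter, sexes fitted separately, a replicate block and leaving out each library. The steps were tested on simulated counts.

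Deviations of same-numbered S64F/+ and WT libraries had positive correlations in all 5 female pairs (0.110 to 0.418) and correlations of mixed sign in males (-0.249 to 0.189). S64F/+ libraries correlated best with their own number for numbers 2 and 4 in females and for number 4 in males. Male number 4, at 0.189, lay above female numbers 1 and 3, at 0.11, so the sexes are not cleanly split. On these data alone female numbers were taken to pair the libraries; the main test has no block, and blocked values are given where they change a female call. The smallest chi-square per degree of freedom between replicates was 21.7, so none repeated another.

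Gene coordinates and merged exon lengths are from GENCODE M21 on GRCm38. Members and gene lists were chosen with earlier results of these data known. Of the 15 macrophage symbols 14 were found. Named are the members called in a genotype contrast or the interaction, Atp6v1h, Ctsb, Ctsd, Ctsl, Lamp1 and Lamp2 whatever their p, and up to 4 called genes per pathway list with the smallest p in each genotype contrast; Adgre1, C1qa, Kit, Ctsf and Atp6v1f were named after their values were seen, and 1 hydrolase that the rule names is not reported here.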

Additional observations from a re-analysis of the deposited data

Results flagged for a closer look

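Single libraries stood apart from the rest of their group in 6 of 135 gene-and-group pairs checked, where chance gives about 1 in 20. Atp6ap2 had 264.3 CPM in female S64F/+ replicate 3, above the other 4 libraries of that group (187.3 to 206.7 CPM), and 206.8 CPM in male S64F/+ replicate 4, above the other 3 (172.0 to 175.8 CPM). Female S64F/+ replicate 3 was also the high library for Atp6v1g1, at 127.1 CPM against 89.48 to 97.93 CPM, and the low library for Atp6v0a1, at 133.6 CPM against 156.2 to 163.7 CPM. Ctsd had 136.2 CPM in male WT replicate 2, below the other male WT libraries (157.9 to 161.3 CPM), and Ctsk had 1.106 CPM in male WT replicate 1, below the other 3 (1.497 to 1.558 CPM). The male calls of Atp6ap2 and Ctsk were kept in all 24 alternatives, those without these libraries included.

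The genotype effect on Atp6v1e1 had a sex difference of -0.45 on the log2 scale, the male minus the female fold change (edgeR adjusted p 0.0421). That call was lost in 16 of 23 alternatives, which include library-size scaling, no filter on low counts and leaving out any 1 of the male S64F/+ libraries. It was also lost without any 1 of male WT replicates 1, 3 and 4, female WT replicates 1, 2, 3 and 5 or female S64F/+ replicates 2, 4 and 5. The male fold change was -0.49 and the female one -0.04, all 4 male S64F/+ libraries lay below all 4 male WT libraries, and the female ranges overlapped.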

How the results depend on the processing

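Over all alternatives the log2 fold changes of tested members gave 3908 values, of which 3724 stayed on the same side of the threshold, 132 lost a call, 52 gained one and 0 calls changed sign. In males 7 or 8 members rose and 8 to 12 fell when 1 library was left out. Library-size scaling left 3 lower in males, and fitting the sexes separately gave 14 lower. In females 5 to 7 rose and 1 to 3 fell; 1 fell with DESeq2 size factors, library-size scaling, no filter, the replicate block or sexes fitted separately, the last with 2587 genes called instead of 3884. For the interaction, leaving out a library gave 0 to 9 members and 253 to 2152 genes instead of 1 and 821; library-size scaling gave 0 members, no filter 0 members and 481 genes, the replicate block 3 members, and DESeq2 8 members and 1925 genes. Male against female in WT gave 0 or 1 members and 71 (without male WT replicate 4) to 643 genes, instead of 1 and 434; DESeq2 size factors gave 0 members, library-size scaling 112 genes, no filter 0 members and 252 genes, and DESeq2 2 members and 1046 genes. Male against female in S64F/+ gave 7 to 16 members and 1651 to 4298 genes, instead of 15 and 2962; library-size scaling gave 9 members and no filter 1969 genes. Vps29, a sorting gene called lower in males, was at 0.0183 with library-size scaling, which raised the median of all genes in males. The cause of the other changes was not tested. In males, where the numbers were not taken to pair the libraries, the block ended the calls of Atp6v1d, Atp6v1h and Ctse and added Atp6v0d1 and Atp6v1b2. Among female and interaction results of members it changed only those given in the report. The fit with sexes separately has no sex contrast, and the block was not run for sex contrasts. Depth limits Atp6v0d2, Ctse, Ctsk and the 11 members left untested.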

Other observations

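The deposited FPKM values set members against each other differently from levels per merged exon. Of the 41 members with a recoverable length, 36 had a length equal to the summed exon lengths of all their transcripts in GENCODE M21, so that a shared exon counts once per transcript. For 4 of these 36, which have 1 transcript each, that is also the merged exon length. Atp6v0e, Atp6v1e2, Ctsa, Ctsf and Ctsw had a length equal to neither. The ratio of the authors' length to the merged exon length ran from 0.392 to 4.35 over the members. A gene with many annotated transcripts, such as Atp6v0a1 with 10, thus has a lower FPKM beside a gene with 1, such as Ctsz or Atp6v1g1, than its counts per merged exon would give. Comparisons of the same gene between groups are not touched, since the length cancels.

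The markers C1qa, C1qb and C1qc, whose proteins form a complex in macrophages, did not move together in males. C1qa averaged 37.73 CPM in male S64F/+ against 68.67 CPM in male WT islets (log2 fold change -0.86 ± 0.15, edgeR adjusted p 0.000383), while C1qb averaged 20.07 CPM in male S64F/+ against 8.494 CPM in male WT islets (1.24 ± 0.15, edgeR adjusted p 9.06e-06) and C1qc 14.91 CPM in male S64F/+ against 5.456 CPM in male WT islets (1.45 ± 0.18, edgeR adjusted p 1.5e-05). The values had been seen when these genes were chosen.

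Npc1 and Npc2, which hand cholesterol out of the lysosome together, had opposite sex differences in the genotype effect. The male minus female log2 difference was 0.53 ± 0.13 for Npc1 (edgeR adjusted p 0.0324) and -0.52 ± 0.13 for Npc2 (edgeR adjusted p 0.0369). Npc1 averaged 39.92 CPM in male S64F/+ against 30.39 CPM in male WT islets and 31.32 CPM in female S64F/+ against 34.57 CPM in female WT islets, and Npc2 averaged 162.4 CPM in male S64F/+ against 188.5 CPM in male WT islets and 215.6 CPM in female S64F/+ against 174.1 CPM in female WT islets. Both were called among 22 tested membrane genes of the lysosome, were picked with their values known and were not run under the other settings.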
